A study of Homo sapiens with 6 samples.

Results

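CDKN1A, CDKN1B, TP53I3, FAS and MDM2 are 5 genes of cell cycle arrest and of the p53 pathway, followed here in LNCaP prostate cancer cells after silencing of Sam68 or XRN2. They were chosen by gene symbol. There are 1944 genes in the gene table, and 4903 polyadenylation sites of 3118 genes in the site table. Of the 5 genes, 4 are listed in the gene table and 2 in the site table, with 4 sites between them, and CDKN1B alone is in both. All 4 listed genes and all 4 sites passed the filters on low values.

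LNCaP cells derive from a human prostate tumour, respond to androgen and carry unmutated p53. Sam68 (gene KHDRBS1) is an RNA-binding protein, and XRN2 is the nuclear exonuclease of transcription termination. Cells were transfected repeatedly with 50 nM of a scrambled siRNA (siCTRL), an siRNA against Sam68 (siSAM68) or one against XRN2 (siXRN2) and harvested at 48 hours, with 2 biological replicates each, so all groups share the transfection. All 6 libraries come from the same cell line, and the labels do not say how the cultures were separated. The 3'READS method reads the far ends of polyadenylated transcripts.

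The p53 protein is a transcription factor that is stabilised by DNA damage and other stress. Its targets include CDKN1A, which encodes p21, an inhibitor of cyclin-dependent kinases (CDKs), FAS, which encodes a death receptor, and MDM2, which encodes the ubiquitin ligase that degrades p53 itself. CDKN1B encodes p27, the related inhibitor that restrains CDK2 and is mainly controlled by protein turnover rather than by p53. TP53I3, also called PIG3, is a p53-induced oxidoreductase linked to oxidative stress.

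The sequences below show the polyadenylation signals of the first and the middle CDKN1B site. These sites were picked since their usage separated control from knockdown libraries, although the tests described further on missed the adjusted threshold. Groups were also separate at 76% of all tested sites after siSAM68 and at 70.9% after siXRN2. In the site table (hg19, chromosome 12, plus strand) the first site lies at position 12874753 with the signal ATTAAA, the middle site at 12875303 with AATAAA and the last site at 12875733 with ATTAAA. The middle site is 550 bases after the first, and the last is 430 bases after the middle one. In the GENCODE v29 transcript of CDKN1B (2657 bases, GRCh38) the plus strand was searched for AATAAA, found 1 time, and ATTAAA, found 2 times. The AATAAA and the earlier ATTAAA are 546 bases apart, close to the distance between the sites. The other ATTAAA lies 112 bases after the earlier one. Windows of 30 bases are printed with the signal in capitals, at chr12:12721796-12721825 and chr12:12722342-12722371 of GRCh38, plus strand. The last site lies outside this transcript and is named only.
CDKN1B first site: cttttATTAAAtttgttgacaaaattttct
CDKN1B middle site: taatcAATAAAgaaaacttccatagctatt

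Among sites of the same class in the whole table, ATTAAA was assigned to 18.4% of 977 first sites and AATAAA to 46.2% of 1570 middle sites. ATTAAA was assigned to 16.2% of 1238 last sites. AATAAA is the canonical signal and ATTAAA its most common variant.

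KHDRBS1, the target of siSAM68, stood at 601 and 741 RPM in siCTRL, against 53.8 and 27.5 RPM after its silencing. RPM is the authors' read number on a scale shared by both libraries of a group, rescaled here so that both libraries of a group have the same total over the listed genes. XRN2 expression was not analysed here. The listed genes held 244707 to 447362 reads in siCTRL, 674067 to 788199 in siSAM68 and 597914 to 1599549 in siXRN2, as the steps in the RPM values show, so the control libraries were the shallowest. The authors' deposited table gives a score of 1.3 or more in size to 67.3% of its genes, and their site table to 81.1% of its sites, so percentages of called genes hold for a selected list. Prostate luminal markers were listed for 10 of 12 genes, with 9 in the gene table at a summed level of 2150 to 3163 RPM per library. None of the 3 basal markers or the 8 stromal, endothelial and immune markers is listed. KLK3 and KLK2, kallikrein genes induced by androgen, changed by -0.82 and -0.88 on the log2 scale after siSAM68 (limma adjusted p = 0.0256 and 0.0161), and the part of this in the results below was not tested.

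After Sam68 silencing CDKN1B and FAS rose, TP53I3 fell, and CDKN1A did not pass the threshold. After XRN2 silencing only TP53I3 of the 4 genes passed, and it was lower. Tests used limma on log2(RPM + 1) with Benjamini-Hochberg adjustment over the 1938 genes whose mean reached 1 RPM, and an adjusted p under 0.05 was called. Of all tested genes 58.8% were called after siSAM68 (35.3% higher, 23.4% lower) and 33.3% after siXRN2 (21.2% higher, 12.1% lower), beside 3 of 4 and 1 of 4 members. An unadjusted p under 0.05 was found for 63.2% and 45.9% of them. On RPM as deposited, without the rescaling, all 4 of these calls ended (limma adjusted p = 0.86 for each after siSAM68 and 0.998 for TP53I3 after siXRN2), and 1 and 0 genes in all were called. In bulk libraries a changed level cannot be told apart from a changed share of cells that express the gene.

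**Figure D1:**
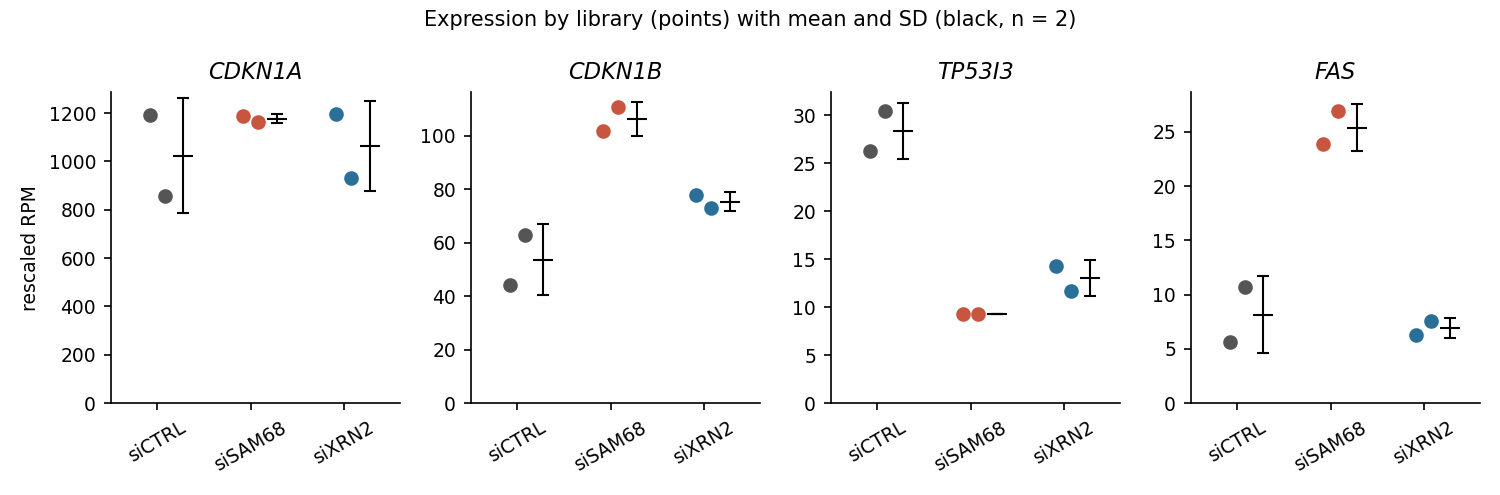
Rescaled RPM (vertical axis, starting at 0, scale differs between panels) of CDKN1A, CDKN1B, TP53I3 and FAS in each library (coloured points), with the mean and SD of each group (black, n = 2). Both siSAM68 libraries lie above both siCTRL libraries for CDKN1B and FAS and below them for TP53I3, while the groups overlap for CDKN1A.

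CDKN1B (NCBI gene 1027, chromosome 12), the gene of p27, stood at 44.4 and 63.1 RPM in siCTRL, at 102 and 111 RPM in siSAM68 and at 77.9 and 72.9 RPM in siXRN2. Every knockdown library was above both control libraries, and the siSAM68 libraries were the highest. The means were 53.8 ± 13.2 RPM in siCTRL, 106 ± 6.51 RPM in siSAM68 and 75.4 ± 3.51 RPM in siXRN2 (SD, n = 2). The rise after siSAM68 was 1.99-fold, a log2 change of 0.99 (SE 0.24, 95% interval 0.49 to 1.50; limma adjusted p = 0.00636). The difference after siXRN2 was 1.42-fold, at log2 0.50 (SE 0.24; limma adjusted p = 0.111), and it missed the threshold although the groups were separate. Groups failed to overlap in 79.7% of all tested genes after siSAM68 and in 65.7% after siXRN2. Groups were separate for 60% of genes between the knockdowns. Set against each other directly, the 2 knockdowns differed by log2 0.49 (95% interval -0.02 to 1.00; limma adjusted p = 0.227), with siSAM68 the higher. The siSAM68 call ended without siCTRL replicate 1 (log2 0.74, limma adjusted p = 0.0513) and without siSAM68 replicate 2 (log2 0.93, adjusted p = 0.0577). CDKN1B rests on about 32 and 83 reads in the siCTRL libraries against 135 to 338 in the others.

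CDKN1A (NCBI gene 1026, chromosome 6), the gene of p21, stood at 1193 and 855 RPM in siCTRL, at 1189 and 1163 RPM in siSAM68 and at 1197 and 933 RPM in siXRN2. The highest library of each group lay at nearly the same level, and all groups overlapped. The differences were log2 0.22 after siSAM68 (95% interval -0.21 to 0.65; limma adjusted p = 0.373) and 0.07 after siXRN2 (95% interval -0.36 to 0.50; limma adjusted p = 0.828). The sign after siXRN2 turned with median-of-ratios scaling (-0.02), and the sign after siSAM68 turned without siCTRL replicate 2 (-0.02). With 858 to 4325 reads per library, counting error was small, and the exact Poisson 95% intervals of the siCTRL libraries, 1110 to 1280 RPM and 805 to 906 RPM, were separate. The interval leaves room for a rise of up to 0.65 or a fall of up to 0.21 on the log2 scale after siSAM68, and does not show that p21 transcripts stayed level.

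TP53I3 (NCBI gene 9540, chromosome 2) stood at 26.3 and 30.5 RPM in siCTRL, at 9.33 and 9.28 RPM in siSAM68 and at 14.3 and 11.7 RPM in siXRN2. Both knockdowns lay below both control libraries, and siSAM68 lay below siXRN2 without overlap. After siSAM68 the level was 0.351 of control, a log2 change of -1.51 (SE 0.34, 95% interval -2.22 to -0.79; limma adjusted p = 0.00501). After siXRN2 it was 0.476 of control, a log2 change of -1.07 (SE 0.34, 95% interval -1.79 to -0.36; limma adjusted p = 0.0269). The direct difference of siSAM68 from siXRN2 was log2 -0.44 (95% interval -1.15 to 0.28; limma adjusted p = 0.441). The fall after siSAM68 passed without each of the 4 libraries in turn. The fall after siXRN2 missed the threshold without siCTRL replicate 1 (adjusted p = 0.0555), siCTRL replicate 2 (0.0703) or siXRN2 replicate 2 (0.144). The siCTRL libraries held about 19 and 40 reads of this gene, the siSAM68 libraries 18 and 21, and the siXRN2 libraries 25 and 54. Exact Poisson 95% intervals, which cover counting error only, ran from 15.8 to 41.1 RPM in siCTRL replicate 1 and from 5.74 to 14.2 RPM in siSAM68 replicate 2.

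FAS (NCBI gene 355, chromosome 10), the death receptor gene, stood at 5.66 and 10.7 RPM in siCTRL, at 23.9 and 26.9 RPM in siSAM68 and at 6.25 and 7.56 RPM in siXRN2. The siSAM68 libraries stood above all 4 others, and both siXRN2 libraries lay between the siCTRL libraries. The rise after siSAM68 was 2.99-fold, a log2 change of 1.58 (SE 0.39, 95% interval 0.75 to 2.41; limma adjusted p = 0.0071). After siXRN2 the difference was log2 -0.16 (95% interval -1.0 to 0.67; limma adjusted p = 0.778). The direct difference between the knockdowns was 3.34-fold, at log2 1.74 (95% interval 0.91 to 2.57), with an unadjusted p of 0.000478 and a limma adjusted p of 0.0744. It thus missed the threshold in a comparison where 0.155% of all genes were called (0.0516% higher, 0.103% lower) and 22.9% had an unadjusted p under 0.05. The direct difference passed with median-of-ratios scaling (limma adjusted p = 0.0492) and with a pseudocount of 5 (0.0424). It missed with a pseudocount of 0.5 (0.0806), equal listed totals (0.077), no trend (0.0976), a replicate block (0.09) and the 2 groups alone (0.0518). It also missed on RPM as deposited. Leaving out single libraries gave log2 differences of 1.62 to 1.86, and whether the direct difference passed depended on the library left out. FAS had about 4 and 14 reads in the siCTRL libraries, with exact Poisson 95% intervals of 1.54 to 14.5 and 5.84 to 17.9 RPM, against 46 and 61 reads in siSAM68. The call after siSAM68 ended without siSAM68 replicate 2 (log2 1.50, limma adjusted p = 0.0581).

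**Figure D2:**
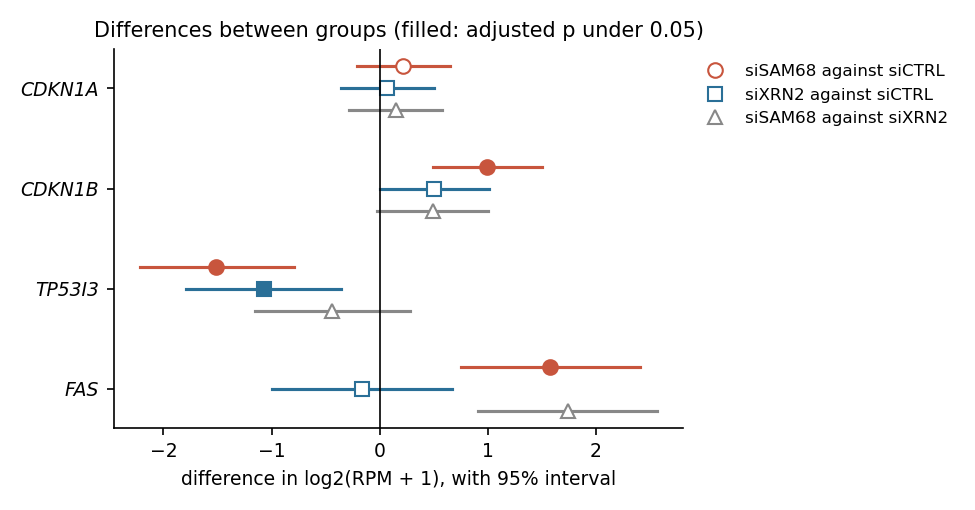
Differences in log2(RPM + 1) between groups (horizontal axis) with 95% intervals from limma for 4 genes, filled where the adjusted p was under 0.05. FAS and CDKN1B are filled above 0 and TP53I3 below 0 for siSAM68 against siCTRL, and for siXRN2 against siCTRL TP53I3 alone is filled.

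The order of levels therefore differed between the genes. CDKN1B ran from siCTRL to siXRN2 to siSAM68, and neither neighbouring pair passed the test. TP53I3 ran in the opposite order, where siXRN2 and siSAM68 did not pass as neighbours and siCTRL and siXRN2 did. For FAS, siXRN2 and siCTRL were neighbours within their spread and siSAM68 stood above. Both knockdowns were set against the same control libraries, so their differences from control are not independent. In the authors' deposited table the log2 ratios, coded as control over knockdown, were -1, 1.6 and -1.6 for CDKN1B, TP53I3 and FAS after siSAM68, with scores of -2.325, 2.585 and -1.772. CDKN1A is listed there with scores of -0.485 and -0.161.

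CDKN1B transcripts ended mostly at the middle site, and this site took a larger share in every knockdown library than in either control library. Its usage was 81.2% and 74.7% of CDKN1B reads in siCTRL. The siSAM68 libraries used it for 93.4% and 88.0% of reads, and the siXRN2 libraries for 89.6% and 91.4%. The means were 78.0 ± 4.63% in siCTRL, 90.7 ± 3.78% in siSAM68 and 90.5 ± 1.27% in siXRN2 (SD, n = 2). On log2(percent + 1) the difference was 0.22 after siSAM68 (SE 0.06; limma adjusted p = 0.0647) and 0.21 after siXRN2 (SE 0.06; limma adjusted p = 0.0901). Neither passed the adjusted threshold over 4866 tested sites, where 14.6% were called after siSAM68 (8.67% higher, 5.96% lower) and 5.18% after siXRN2 (3.78% higher, 1.4% lower). The unadjusted p-values were 0.017 and 0.0178, and 47.6% and 38.5% of all sites had one under 0.05. Groups did not overlap in 76% of all tested sites after siSAM68, in 70.9% after siXRN2 and in 52.2% between the knockdowns.

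The first CDKN1B site took the smaller share in the knockdowns, with siCTRL libraries at 15.6% and 10.8%, siSAM68 libraries at 3.55% and 4.78%, and siXRN2 libraries at 6.67% and 5.62%. All 4 knockdown libraries lay below both control libraries. The mean difference was -9.06 percentage points after siSAM68 (limma adjusted p = 0.0627) and -7.08 points after siXRN2 (limma adjusted p = 0.14), so neither passed. Without the mean-variance trend the siSAM68 difference passed (limma adjusted p = 0.0415). It missed in every other alternative, as with a pseudocount of 5 (0.0561) and a replicate block (0.0968). Without the trend the middle site stood at limma adjusted p = 0.226 after siSAM68 and 0.261 after siXRN2. The first-site shares are 5 of 32 and 9 of 83 reads in siCTRL, and the Wilson 95% intervals ran from 6.86% to 31.8% and from 5.81% to 19.3%. In siSAM68 they are 7 of 197 and 12 of 251 reads, with intervals from 1.73% to 7.15% and from 2.76% to 8.17%. The control intervals overlap those of siSAM68, and the intervals cover counting error only.

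The last CDKN1B site varied most between control replicates, which stood at 3.12% and 14.5%, while siSAM68 libraries were at 3.05% and 7.17% and siXRN2 libraries at 3.7% and 2.96%. All groups overlapped at this site. The limma adjusted p was 0.641 after siSAM68 and 0.406 after siXRN2, and the 1 read of 32 in siCTRL replicate 1 sets a wide interval of 0.554% to 15.7%. Between the 2 knockdowns the middle site differed by 0.2 percentage points (95% interval -0.16 to 0.16 on log2(percent + 1); limma adjusted p = 0.995). No site of any gene passed in that direct comparison by limma after adjustment (0 of 4866), while 13.2% had an unadjusted p under 0.05.

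**Figure D3:**
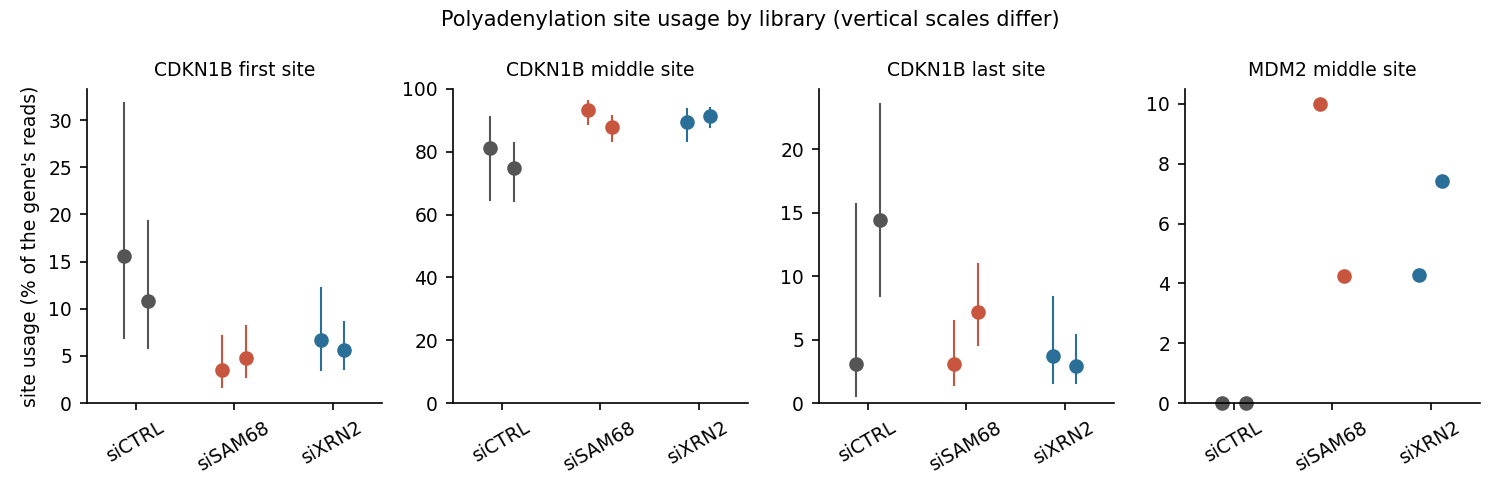
Site usage as a percent of the gene's reads (vertical axis, starting at 0, scale differs between panels) for the 3 CDKN1B sites and the MDM2 site in each library (points), with Wilson 95% intervals for CDKN1B. The middle CDKN1B site is higher and the first site lower in all 4 knockdown libraries than in both siCTRL libraries.

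The level at each CDKN1B site, taken as the gene's RPM times the usage, places the higher knockdown levels at the middle site. This level was 36.1 and 47.1 RPM in siCTRL, 95.03 and 97.7 RPM in siSAM68 and 69.8 and 66.7 RPM in siXRN2. At the first site it was 6.94 and 6.84 RPM in siCTRL, 3.61 and 5.30 RPM in siSAM68 and 5.20 and 4.10 RPM in siXRN2. Means at the middle site were 41.6 ± 7.83, 96.4 ± 1.88 and 68.3 ± 2.22 RPM in siCTRL, siSAM68 and siXRN2, and those at the first site were 6.89 ± 0.0662, 4.46 ± 1.20 and 4.65 ± 0.776 RPM (SD, n = 2). The first-site levels in siCTRL rest on about 5 and 9 reads, and their small SD does not include this counting error. The last site stood at 5.26 ± 5.47, 5.53 ± 3.43 and 2.52 ± 0.512 RPM. The middle site thus lay higher in every knockdown library and the first site lower, as a description of values already tested above, with no test of its own.

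**Figure D4:**
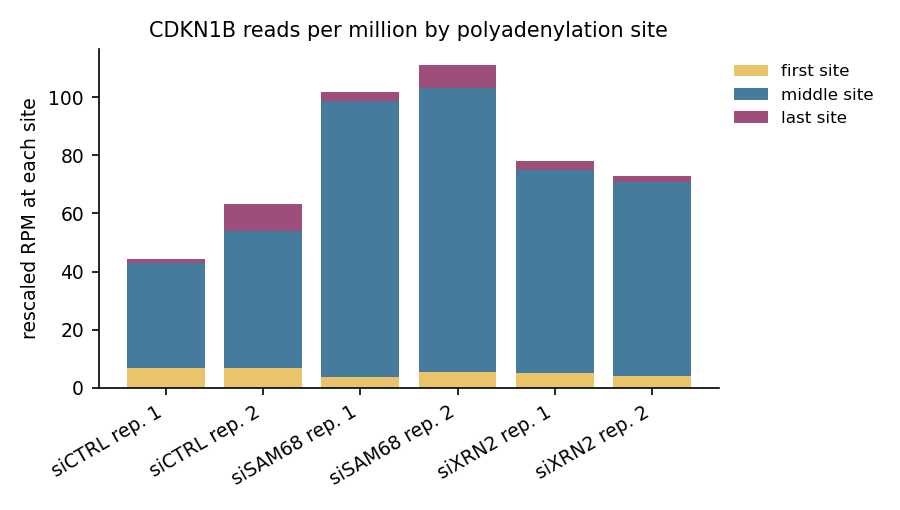
CDKN1B level in rescaled RPM (vertical axis, starting at 0) in each library, split by polyadenylation site (colours). The middle site holds 36.1 and 47.1 RPM in siCTRL and 95.03 and 97.7 RPM in siSAM68, while the first site is at or below 6.94 RPM throughout.

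MDM2, the ubiquitin ligase that degrades p53, is listed with 1 site, a middle 3' UTR site (hg19 chromosome 12, position 69236400, plus strand) with a signal other than AATAAA or ATTAAA. It is listed at 0 in both siCTRL libraries, at 10.0% and 4.24% of MDM2 reads in siSAM68 and at 4.29% and 7.41% in siXRN2. All 4 knockdown libraries were above the control libraries, and the knockdowns overlapped each other. The limma adjusted p was 0.0432 after siSAM68 (7.12 percentage points higher) and 0.0651 after siXRN2 (5.85 points higher), and 0.921 for the direct difference. The siSAM68 call ended without each of the 4 libraries in turn, with adjusted p-values of 0.0732 to 0.123, and with a pseudocount of 5, an arcsine scale or the 2 groups alone (adjusted p = 0.0588, 0.0501 and 0.0682). MDM2 is not in the gene table, so its level was not analysed here, and the number of reads behind these percentages is unknown. With both siCTRL values at 0, the site reached the filter of 1% mean usage through the knockdown libraries alone. The control values also add no spread to the test, which limits the call. Whether the value of 0 reflects the lower depth of the control libraries was not tested.

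Of the other CDK inhibitors, CDKN1C, CDKN2A to CDKN2D and CDKN3, none is listed in either table. Beyond the 5 genes, 6 lists of p53 regulators and targets, CDK inhibitors and factors of p27 and p21 control held 141 genes, of which 22 were tested in the gene table. Whether p53 controls the listed genes in these cells was not tested. After siSAM68, 8 of these 22 rose and 6 fell, with a median log2 difference of 0.10 beside 0.16 over all tested genes. Of all tested genes 35.3% rose and 23.4% fell, so these counts lie near the background. After siXRN2, 4 of 22 rose and 4 fell, beside 21.2% and 12.1% of all tested genes, with a median of 0.03 beside 0.08. With median-of-ratios scaling, which lowers the median change by 0.16 to 0.00, the calls over all genes after siSAM68 were 527 higher and 546 lower in place of 685 and 454, and after siXRN2 344 and 303 in place of 411 and 235.

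**Figure D5:**
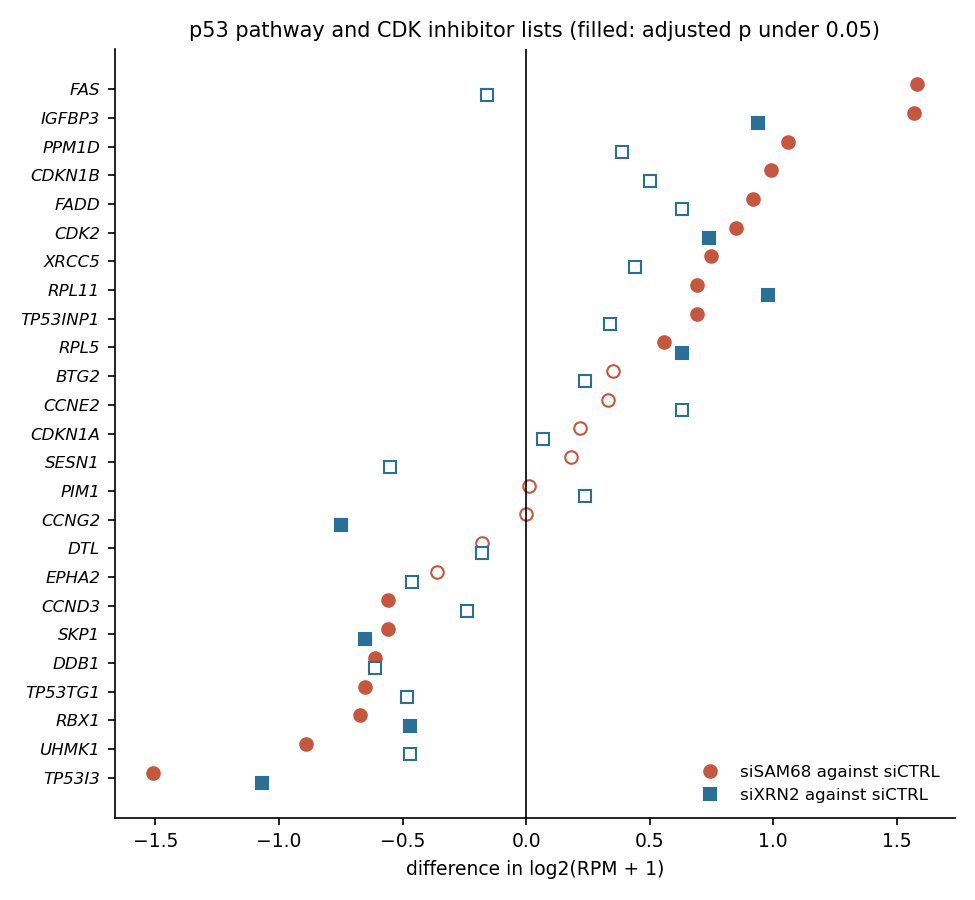
Differences in log2(RPM + 1) (horizontal axis) after siSAM68 (circles) and siXRN2 (squares) for genes of the 6 lists in the gene table, all but 1 shown, ordered by the siSAM68 difference and filled where the adjusted p was under 0.05. FAS and IGFBP3 stand highest and TP53I3 lowest after siSAM68, and all 3 of PPM1D, RPL5 and RPL11 are above 0 in both comparisons.

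Among 29 p53 regulators, 3 were tested and all 3 rose after siSAM68, where 35.3% of all tested genes rose. PPM1D, the phosphatase that reverses p53 activation, was at 26.0 ± 5.20 RPM in siCTRL and 55.0 ± 9.06 RPM after siSAM68 (SD, n = 2), a log2 change of 1.06 (limma adjusted p = 0.00852). It stood at 34.1 ± 3.29 RPM in siXRN2 (limma adjusted p = 0.297). RPL5 and RPL11, ribosomal proteins that bind MDM2, rose by 0.56 and 0.69 after siSAM68 (limma adjusted p = 0.0202 and 0.0239) and by 0.63 and 0.98 after siXRN2 (0.0219 and 0.0127). Both have processed pseudogenes whose reads may be shared, and both stayed above 0 but missed the threshold after siSAM68 with median-of-ratios scaling (adjusted p = 0.0788 and 0.0742).

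On the list for arrest and growth, 2 of the 5 tested genes other than CDKN1A rose after siSAM68, a share near that of all genes. IGFBP3, which binds insulin-like growth factors, was at 47.2 ± 14.0 RPM in siCTRL and rose to 141 ± 39.5 RPM after siSAM68 (SD, n = 2), by 1.57 on the log2 scale (limma adjusted p = 0.00304). It rose to 92.5 ± 34.0 RPM after siXRN2 (log2 0.94, limma adjusted p = 0.0281). TP53INP1, a stress-induced nuclear protein, rose by 0.69 after siSAM68 (limma adjusted p = 0.00843). CCNG2, cyclin G2, was at 84.1 ± 18.6 RPM in siCTRL and 83.7 RPM in siSAM68, with libraries at 75.9 and 91.5 RPM (limma adjusted p = 0.99), and it fell to 49.4 ± 6.08 RPM after siXRN2 (log2 -0.75, limma adjusted p = 0.0325). The direct difference of CCNG2 between the knockdowns did not pass. BTG2 and SESN1, the antiproliferative and sestrin targets, passed in neither comparison.

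On the list for apoptosis, FADD, the adaptor that binds the FAS receptor, was tested beside FAS and TP53I3. FADD rose by log2 0.92 after siSAM68 (limma adjusted p = 0.00959), to 76.2 ± 17.2 RPM against 39.4 ± 5.13 RPM in siCTRL (SD, n = 2). It stood at 61.1 ± 0.640 RPM in siXRN2 (log2 0.63, limma adjusted p = 0.0672). FAS and FADD, receptor and adaptor, were thus both higher after siSAM68, where 35.3% of all tested genes rose, while TP53I3 was lower. FADD lost its call without siSAM68 replicate 2, as FAS did. On the list for DNA repair and other functions, XRCC5, the Ku80 subunit, rose by 0.75 after siSAM68 (limma adjusted p = 0.01). The noncoding TP53TG1 changed by -0.65 after siSAM68 (limma adjusted p = 0.0181).

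Of 10 tested factors that control p27 and p21, 5 fell and 1 rose after siSAM68, beside 23.4% lower and 35.3% higher among all tested genes, at a median log2 difference of -0.45. UHMK1, the kinase KIS that phosphorylates p27, was at 347 ± 7.19 RPM in siCTRL and fell to 187 ± 16.3 RPM (SD, n = 2), a log2 change of -0.89 (limma adjusted p = 0.00392). RBX1, the RING subunit of cullin ubiquitin ligases, was at 1237 ± 15.9 RPM and fell to 776 ± 29.4 RPM, a log2 change of -0.67 (limma adjusted p = 0.00744), and DDB1, an adaptor of such ligases, fell by 0.61 on the log2 scale. CDK2, the kinase that p21 and p27 inhibit, rose by 0.85 after siSAM68 and by 0.74 after siXRN2 (limma adjusted p = 0.01 and 0.0285). After siXRN2, 3 of these 10 fell and 1 rose, beside 12.1% lower and 21.2% higher among all tested genes, with SKP1 of the p27 ubiquitin ligase at -0.65 and RBX1 at -0.47 (limma adjusted p = 0.0264 and 0.0476). SKP2, the subunit that recognises p27, was not analysed here. With the 5 members left out, the 6 lists held 14 gene calls after siSAM68 and 8 after siXRN2. Each of these missed the threshold without at least 1 library, except IGFBP3 and UHMK1 after siSAM68.

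In the site table, 50 sites of the other listed genes were tested, and 2 gained and 3 lost usage after siSAM68. Among all tested sites 8.67% gained and 5.96% lost usage, so these counts do not lie above the background in the first direction and lie near it in the second. The last site of CHEK2, the checkpoint kinase upstream of p53 (hg19 chromosome 22, position 29083730), was used for 100% of reads in both siCTRL libraries and for 33.3% and 50.0% in siSAM68 (limma adjusted p = 0.0392). The last site of PPP1R13B, which encodes the p53 cofactor ASPP1 (chromosome 14, position 104200089), went from 66.1 ± 9.38% to 36.8 ± 3.36% (SD, n = 2; limma adjusted p = 0.0464). The first site of AIFM2 (chromosome 10, position 71873742) went from 93.8 ± 8.84% to 63.3 ± 7.68% (limma adjusted p = 0.0459). The first site of PUM2 (chromosome 2, position 20451049) is listed at 0 in both siCTRL libraries and at 7.37% and 4.35% in siSAM68 (limma adjusted p = 0.0496). The last site of KITLG (chromosome 12, position 88886566) is listed at 0 in siCTRL, at 100% and 60.0% in siSAM68 and at 83.3% and 66.7% in siXRN2, and passed in both comparisons (limma adjusted p = 0.00809 and 0.0111). The calls of CHEK2, AIFM2 and PUM2 ended without each of the 4 libraries in turn, with limma adjusted p-values of 0.078 to 0.119, 0.0823 to 0.136 and 0.0839 to 0.146. That of PPP1R13B ended without 3 of the 4 (0.105 to 0.142), and with the 2 groups alone all 4 of these calls ended (0.0595 to 0.0799). KITLG missed the threshold after siSAM68 without siSAM68 replicate 1 (0.0729) or 2 (0.0672), and after siXRN2 without siXRN2 replicate 1 (0.0871) or 2 (0.0788) and with the 2 groups alone (0.0582). None of these 5 genes is in the gene table, so the reads behind the percentages are unknown. With both siCTRL values at 0, the PUM2 and KITLG sites reached the filter of 1% mean usage through the knockdown libraries alone. Their control values, and those of CHEK2 at 100%, also add no spread to the tests, which limits these calls.

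Genes of nearest pattern were ranked by the root-mean-square difference of centred log2(RPM + 1) over the 6 libraries, among genes whose mean reached 20 RPM. Nearest to CDKN1B were TRMT112, a cofactor of methyltransferases (0.07), C8orf59 (0.08) and CCNB1, cyclin B1 (0.08), against a median of 0.48 over all ranked genes. CCNB1 was higher after siSAM68 by 0.99, as CDKN1B was, which follows from its choice by pattern. Nearest to CDKN1A were SLC38A2, an amino acid transporter (0.10), BAMBI (0.10) and the prostate homeobox gene HOXB13 (0.11), with a median of 0.41. TP53I3 was nearest to PRR5 (0.17) and LPHN1 (0.21) among the genes named, with a median of 0.74. FAS had no neighbour as close, with ZBED4 (0.32), TARBP1 (0.37) and the kinase gene TBK1 (0.37) beside a median of 0.83. Means of FAS and TP53I3 themselves lay under 20 RPM, with about 4 and 14 reads of FAS in the siCTRL libraries. The part of counting error in their distances was not tested. These distances come from the same libraries and share their depth.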

How the data were processed

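RNA 3' ends of 6 LNCaP libraries were sequenced by 3'READS. Per the submitters' processing notes, cutadapt and Bowtie2 were used with hg19. Tool versions were not given in the sources used here, nor were annotation and filters. Deposited by the authors were RPM values per gene with 1 decimal, on a scale shared by both libraries of a group. The authors' deposited site usage is a percent of a gene's reads. The authors' deposited score is used undefined, since the sources used here do not define it, and their log2 ratio is coded control over knockdown. Columns were matched to libraries by the number in the sample descriptions.

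RPM values were rescaled within a group, giving each library the sum over listed genes that the pair of libraries has together. Steps of 0.492, 0.238 and 0.157 RPM in siCTRL, siSAM68 and siXRN2 give the approximate reads, used for depth only. After rounding they do not meet the requirement for a count test, so the planned count tests were not run. CDKN1B site reads are the gene's reads times the usage. Genes and sites were tested with limma 3.58.1 (R 4.3.3), all 3 groups in 1 fit, a mean-variance trend and no replicate term, on log2(RPM + 1) for genes of mean RPM of at least 1 and log2(percent + 1) for sites of mean usage of at least 1%. The fits were tested on simulated data. Each p-value weighs a group difference against the spread within groups, pooled over 3 groups of 2 replicates. This spread is moderated towards that of genes or sites at a similar level. Site types F, M and L were taken to mark the first, a middle and the last 3' UTR site.

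The genes and lists were chosen with earlier results of these data known. All 5 members and their sites are described. A listed gene is named where it passed in at least 1 comparison, at most the 4 of largest change per list and comparison, and the 3 genes of nearest pattern are named per member. BTG2, SESN1, KLK2, KLK3 and genes named as not listed were added after their values were seen. Of the genes these rules name, 2 are not reported here. Figures used matplotlib 3.10.9.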

Additional observations from a re-analysis of the deposited data

How the results depend on the processing

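TP53I3 after siSAM68 kept its call in every alternative except RPM as deposited. That setting leaves the depth difference within groups in place and called 1 gene after siSAM68, 0 after siXRN2 and 1 between the knockdowns, with 0 of the members after either knockdown. Over 156 values of the 4 member genes under alternatives, 135 kept direction and call, 10 lost the call, 4 gained it and 7 turned, of CDKN1A or FAS where neither passed. CDKN1A after siXRN2 was -0.04 as deposited and -0.02 with median-of-ratios scaling. Without single libraries it ranged from -0.02 to 0.46 after siSAM68, from -0.17 to 0.31 after siXRN2 and from -0.03 to 0.33 between the knockdowns, and FAS after siXRN2 from -0.57 to 0.24. CCNG2 after siSAM68 was -0.15 with median-of-ratios scaling, -0.03 with equal listed totals and -0.22 to 0.23 without single libraries. KHDRBS1 after siXRN2 was -0.01 as deposited and -0.23 to 0.42 without single libraries. Between the knockdowns DDB1 was 0.15 and RPL5 0.09 as deposited, and without single libraries the ranges were -0.28 to 0.27 for DDB1, -0.24 to 0.10 for RPL5, -0.58 to 0.00 for RPL11, -0.09 to 0.30 for CDK2 and -0.19 to 0.36 for SKP1. A library left alone in its group was assumed to vary like the others, and the causes were not tested.

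Leaving out single libraries gave 344 to 900 called genes after siSAM68 (1139 with all), of 1 to 3 members, 199 to 714 after siXRN2 (646 with all), of 0 to 1, and 1 to 338 between the knockdowns (3 with all), of 0 to 1. Without the trend 364 genes passed after siXRN2. Between the knockdowns 1 gene passed with a pseudocount of 0.5, 9 with 5, 30 with median-of-ratios scaling and 1 without the trend, with FAS as the 1 member at a pseudocount of 5 and under that scaling.

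For sites after siSAM68, leaving out single libraries gave 0 to 812 calls (712 with all) and 0 members, and the 2 groups alone gave 358 and 0. MDM2 was not called with a pseudocount of 5 or an arcsine scale (0 members each), while 2 member sites passed without the trend, the first CDKN1B site and MDM2. After siXRN2 the range was 0 to 371 (252 with all), with 51 on the arcsine scale and 0 for the 2 groups alone. Between the knockdowns, 3 sites passed with a pseudocount of 5, 4 on the arcsine scale and 32 without the trend. Without single libraries the last CDKN1B site ranged from -1.43 to 0.48 after siSAM68, from -1.84 to 0.07 after siXRN2 and from -0.09 to 0.92 between the knockdowns. In that comparison the ranges were -0.04 to 0.04 for the middle CDKN1B site, -0.35 to 0.72 for MDM2, -0.31 to 0.42 for KITLG and -0.09 to 1.04 for PUM2, and CHEK2 after siXRN2 ranged from -0.45 to 0.00.

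Replicate numbers are shared between groups, but no label says that they mark a batch, and deviations of same-numbered libraries correlated at 0.00 to 0.18 over genes and 0.00 to 0.04 over sites. With the replicate block, 1142 genes passed after siSAM68, 653 after siXRN2 and 1 between the knockdowns. Site calls under the block were 113 after siSAM68 with 0 members and 0 after siXRN2. The block ended the siSAM68 site calls of MDM2 (limma adjusted p = 0.0742), CHEK2 (0.0704), PPP1R13B (0.0765), AIFM2 (0.0734) and PUM2 (0.0814), and KITLG after siXRN2 (0.0642). The planned count tests were not run.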

Other observations

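A noncoding RNA that the gene table describes as an Alu-mediated regulator of CDKN1A transcription, LOC100505854 (chromosome 7, minus strand), was higher after siSAM68 while CDKN1A missed the threshold. It was chosen after its values were seen. It stood at 1.41 and 3.87 RPM in siCTRL, at 14.5 and 12.4 RPM in siSAM68 and at 5.15 and 7.83 RPM in siXRN2. No groups overlapped, as in 79.7% of all tested genes after siSAM68, 65.7% after siXRN2 and 60% between the knockdowns. The log2 change after siSAM68 was 2.08 (SE 0.47; limma adjusted p = 0.00524), and the difference after siXRN2 was 1.10 (limma adjusted p = 0.079). It rests on about 1 and 5 reads in the siCTRL libraries against 28 in each siSAM68 library, with exact Poisson 95% intervals of 0.0358 to 7.88 and 1.26 to 9.03 RPM in siCTRL.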
